A study of Mus musculus with 12 samples.

Results

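A set of 9 genes carried mainly by monocytes and macrophages was followed in RNA-seq of mouse retina: *Wfdc17*, *Ms4a7*, *Arg1*, *Chil3*, *Mrc1*, *Cd163*, *Lyz2*, *Ly6c2* and *F13a1*. They were found by exact gene name among the 55487 genes of the deposited gene table. The members were chosen by values measured in these libraries, besides their use as markers. The value on record is the rise of *Wfdc17* after NMDA in sh*Pax6* retinas, and which other values entered the choice is not recorded. For this reason every comparison that includes sh*Pax6* libraries is given as a description, without a test, and tests are given only between WT and JNK3 KO retinas. Values of WT and JNK3 KO libraries may have entered the choice as well. The p-values and counts of members called below are therefore not known to be free of it. The study asked how PAX6, a developmental transcription factor, and the stress kinase JNK3 shape gene expression in the retina after excitotoxic injury.

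The 12 libraries form 6 groups of 2. WT retinas came from C57BL/6J mice and JNK3 KO retinas from Jnk3-/- mice. The sh*Pax6* retinas were infected with an adeno-associated virus, AAV2.7m8, that carries an shRNA against *Pax6* and GFP and expresses the shRNA from the U6 promoter. Each genotype was injected intravitreally with 1 μL of PBS or with 1 μL of 40 mM NMDA, that is 40 nmol of this glutamate receptor agonist, which kills retinal ganglion cells. RNA was extracted from more than 3 retinas per library and carried a poly(A) tail, so each library is a pool. No library of retinas given a control virus is part of the analysis, so infection and *Pax6* knockdown cannot be told apart. The labels speak of 3 independent experiments but do not tie a library to any of them, so the p-values below measure only the spread between libraries, which may be technical.

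Monocytes are blood cells that enter injured tissue and mature there into macrophages, whereas microglia are the resident macrophages of the retina. Infiltrating cells are commonly recognized by transcripts that homeostatic microglia express weakly, and tissue macrophages at the borders of the nervous system carry scavenger and mannose receptors. None of the 9 genes marks a single cell type. *Lyz2* is expressed by microglia and neutrophils as well, *Chil3* by neutrophils, and *Ly6c2* lies beside close relatives that endothelial cells express. In bulk tissue, more cells of a type and more RNA per cell cannot be told apart, and no measurement here separates cells that entered the retina from cells that were already there.

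Many myeloid genes are driven by PU.1, an ETS factor whose core site reads GAGGAA. This motif was searched on both strands in windows of 300 bases at RefSeq transcription starts of GRCm38.p6, from 250 bases before to 50 bases after the start. The table held windows for 8 members, and none was listed for *Arg1*. The motif was present in 7 of the 11 windows of these members, in 5 of the 8 genes (of which *Ms4a7*, *Ly6c2* and *F13a1* have 2 windows each, overlapping for *Ly6c2*), and in 28.3% of the 32817 windows of all genes. The windows of *Chil3*, *Cd163* and *Lyz2* did not hold these letters. The motif TTGCNNAA, read by C/EBP factors, was in 0 of the 11 windows and in 10.8% of all windows, and the AP-1 motif TGANTCA was in 1 window, of *Ms4a7*, and in 7.81% of all. No window held more than 1 kind of motif, and a match is a string of letters and not a measured binding site. The windows of *Wfdc17*, at chr11:83703806-83704105 on the plus strand, and of *Mrc1*, at chr2:14229164-14229463 on the plus strand, are shown because *Wfdc17* was highest in WT NMDA libraries and *Mrc1* was above 1 FPKM in sh*Pax6* NMDA libraries alone. Capitals mark the PU.1 motif, here read on the opposite strand.
Wfdc17 promoter window: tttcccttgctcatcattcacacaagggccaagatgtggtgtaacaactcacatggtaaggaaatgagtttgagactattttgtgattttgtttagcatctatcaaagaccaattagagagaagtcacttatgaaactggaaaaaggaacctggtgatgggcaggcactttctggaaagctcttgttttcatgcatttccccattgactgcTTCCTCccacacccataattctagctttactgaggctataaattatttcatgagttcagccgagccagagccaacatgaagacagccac
Mrc1 promoter window: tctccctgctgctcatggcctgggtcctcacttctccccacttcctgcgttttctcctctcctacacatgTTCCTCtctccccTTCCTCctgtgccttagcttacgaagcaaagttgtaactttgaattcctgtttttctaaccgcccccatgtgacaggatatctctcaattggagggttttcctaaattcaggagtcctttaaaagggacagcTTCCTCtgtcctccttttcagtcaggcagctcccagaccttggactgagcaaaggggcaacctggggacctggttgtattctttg

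The members lie on 8 chromosomes of GRCm38, and all are protein coding in GENCODE M21. *Wfdc17* (ENSMUSG00000069792, chr11:83703991-83706268, plus strand) has 1 annotated transcript of 533 exonic bases, the shortest of the set. *Mrc1* (ENSMUSG00000026712, chr2:14229392-14332057, plus strand) and *F13a1* (ENSMUSG00000039109, chr13:36867178-37050244, minus strand) have the longest exonic sequence, with 6371 and 6739 bases. *Lyz2* (ENSMUSG00000069516) lies at chr10:117277331-117282321 on the minus strand, *Arg1* (ENSMUSG00000019987) at chr10:24915221-24927484 on the minus strand and *Ms4a7* (ENSMUSG00000024672) at chr19:11321039-11336146 on the minus strand. *Chil3* (ENSMUSG00000040809) lies at chr3:106147554-106167564 on the minus strand, *Cd163* (ENSMUSG00000008845) at chr6:124304656-124330527 on the plus strand and *Ly6c2* (ENSMUSG00000022584) at chr15:75108158-75111970 on the minus strand.

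Of the members, 3 have a near-identical copy that could take or lend reads. The coding sequence of *Ly6c2* is identical to that of *Ly6c1* at all but 9 of 393 positions, that of *Chil3* to *Chil4* at all but 55 of 1194 and that of *Lyz2* to *Lyz1* at all but 22 of 444. Of all runs of bases as long as a read in the main transcript, 15.5% were also in another gene for *Ly6c2*, 5.21% for *Chil3* and 1.81% for *Lyz2*, and none was for the other members. The first 150 coding bases of the closest pair, read from the GENCODE M21 transcripts Ly6c2-201 and Ly6c1-201, are shown because few positions separate the pair. Capitals mark the 6 positions that differ.
Ly6c2: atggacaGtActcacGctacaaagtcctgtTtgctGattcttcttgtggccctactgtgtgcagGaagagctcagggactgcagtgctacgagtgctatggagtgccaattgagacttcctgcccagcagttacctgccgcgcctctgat
Ly6c1: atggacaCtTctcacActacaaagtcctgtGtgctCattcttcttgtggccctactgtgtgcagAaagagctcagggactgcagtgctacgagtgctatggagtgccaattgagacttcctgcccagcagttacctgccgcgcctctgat

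Abundances were deposited as FPKM, fragments scaled by transcript length and by library size, a scale per length that holds no counts, so the depth behind a value is unknown. The sum of FPKM over all genes was 805627 and 820180 in the 2 WT NMDA libraries and lay between 541210 and 576922 in the other 10. The WT NMDA libraries also differed from WT PBS by gene length, with a median log2 difference of 0.84 for genes of 1 to 2 kb and -0.61 for genes over 4 kb, so the NMDA responses of the members in WT are also given on other scales. Levels, ratios, sums and the values of other genes are given on FPKM as deposited. The targeted genes gave a check of the labels. For *Mapk10*, which encodes JNK3, the WT PBS libraries read 42.79 and 50.72 FPKM while JNK3 KO PBS libraries read 9.47 and 8.75. After NMDA the libraries of these genotypes overlapped, at 8.98 and 6 FPKM in WT and 6.65 and 13.77 in JNK3 KO, so *Mapk10* does not separate them there. For *Pax6*, the WT PBS libraries read 173.48 and 177.3 FPKM while sh*Pax6* PBS libraries read 94.56 and 92.84, but after NMDA its 67.52 and 58.73 FPKM in sh*Pax6* retinas were not below the 55.42 and 53.81 FPKM of WT retinas. The rod genes *Gnat1* and *Sag* were among the most abundant transcripts of all libraries, as the tissue label implies. The fit used limma and log2(FPKM + 0.1) over the 16471 genes whose mean exceeded 1 FPKM in any group. A gene was called where its p, adjusted by Benjamini-Hochberg over all of these, fell under 0.05 and its absolute log2 difference exceeded 1. Of the members, 8 passed this filter and *Cd163* did not. The member just inside it, *Mrc1*, had a highest group mean of 2.08 FPKM and passed through sh*Pax6* NMDA alone, and *Cd163*, outside it, reached 0.02 FPKM.

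**Figure D1:**
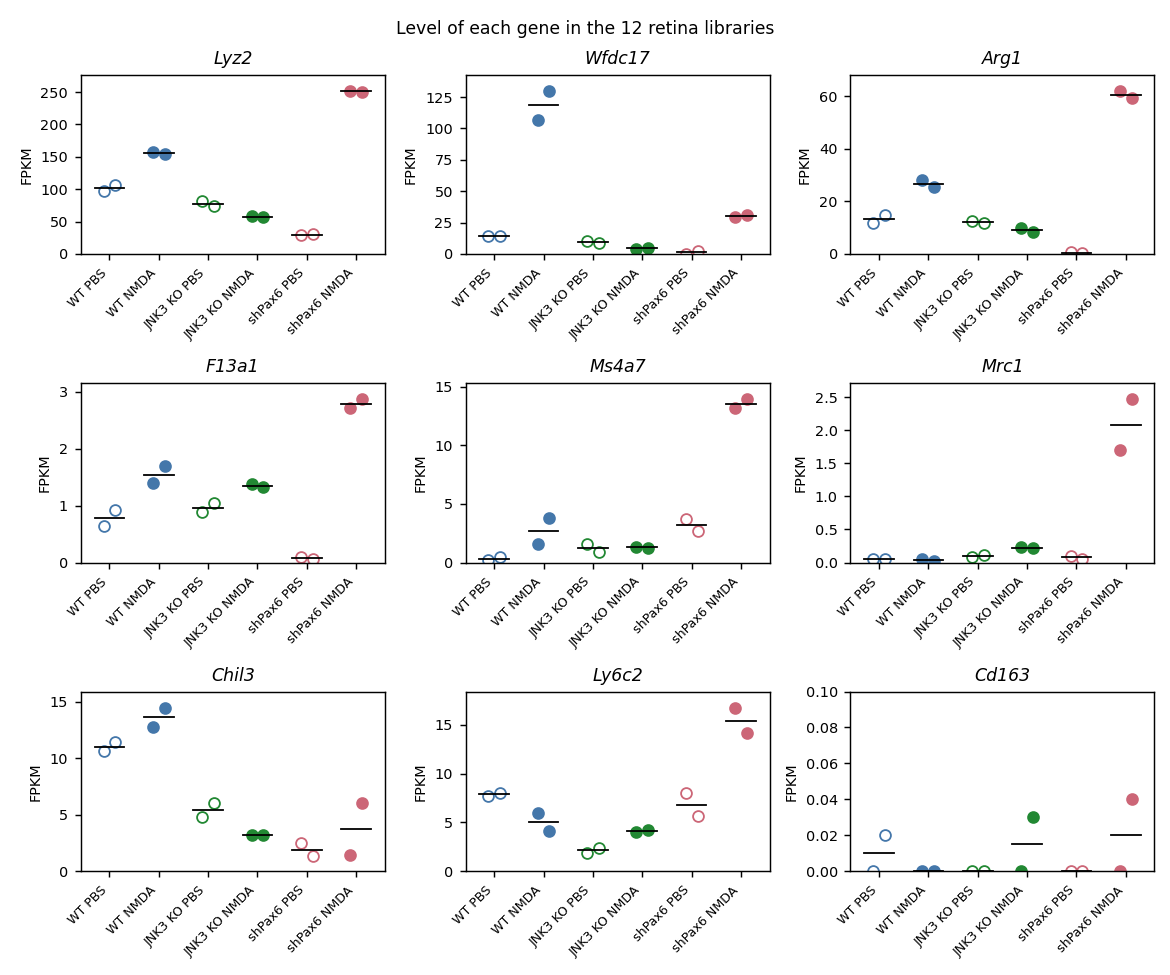
FPKM of each of the 9 genes (vertical axis, from 0, with its own range in each panel) in the 6 groups, with 1 point per library (open for PBS, filled for NMDA) and a line at the group mean. The sh*Pax6* NMDA libraries lie highest for 6 of the 8 genes above the filter, *Wfdc17* and *Chil3* are highest in WT NMDA, and *Cd163* stays at or below 0.04 FPKM in all 12 libraries.

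The secreted products and enzymes are described first. *Lyz2*, which encodes the lysozyme of myeloid cells, had the highest level. Its levels were 97.7 and 106.33 FPKM in WT PBS, 157.87 and 154.94 in WT NMDA, 81.05 and 74.43 for JNK3 KO PBS, 57.95 and 57.62 for JNK3 KO NMDA, 29.04 and 30.31 in sh*Pax6* PBS and 251.94 and 250.44 FPKM in sh*Pax6* NMDA libraries. The 6 groups did not overlap, so that the order ran from sh*Pax6* NMDA over WT NMDA, WT PBS, JNK3 KO PBS and JNK3 KO NMDA down to sh*Pax6* PBS. Its copy *Lyz1* did not exceed 0.35 FPKM in any library.

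*Wfdc17* encodes a small secreted protein with a whey acidic protein domain that activated macrophages and microglia release. Its levels were 13.99 and 14.21 FPKM in WT PBS, 106.77 and 129.93 in WT NMDA, 10.55 and 9.06 for JNK3 KO PBS and 4.13 and 4.73 FPKM in JNK3 KO NMDA libraries. In sh*Pax6* retinas it was listed at 0 and 2.36 FPKM after PBS and at 29.15 and 30.79 FPKM after NMDA. These groups did not overlap either, but the order differed from that of *Lyz2* at the top: WT NMDA libraries were highest, with a mean of 118 FPKM against 30 FPKM in sh*Pax6* NMDA.

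*Arg1* encodes arginase 1, which splits arginine and is a familiar marker of alternatively activated macrophages. It was listed at 11.83 and 14.78 FPKM in WT PBS, 28.05 and 25.4 in WT NMDA, 12.44 and 11.77 for JNK3 KO PBS, 9.84 and 8.52 for JNK3 KO NMDA, 0.61 and 0.35 in sh*Pax6* PBS and 61.98 and 59.2 FPKM in sh*Pax6* NMDA libraries. Only the PBS groups of WT and JNK3 KO retinas overlapped. The sh*Pax6* PBS libraries, with a mean of 0.48 FPKM, stood far below all others, and the sh*Pax6* NMDA libraries stood highest. *Lyz2*, *Wfdc17* and *Arg1* together made up between 67.3% and 93.1% of the summed FPKM of the members in a library.

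*F13a1* encodes the catalytic A chain of coagulation factor XIII, which monocytes and tissue macrophages store. Its levels were low throughout, from 0.06 FPKM in a sh*Pax6* PBS library to 2.87 FPKM in a sh*Pax6* NMDA library. WT PBS libraries had 0.65 and 0.93 FPKM, WT NMDA 1.4 and 1.69, JNK3 KO PBS 0.88 and 1.04, JNK3 KO NMDA 1.38 and 1.32, sh*Pax6* PBS 0.09 and 0.06 and sh*Pax6* NMDA 2.71 and 2.87 FPKM. WT and JNK3 KO PBS libraries overlapped, and the sh*Pax6* groups again took both the first and the last place. *Chil3* encodes Ym1, a chitinase-like lectin of myeloid cells. It was listed at 10.63 and 11.4 FPKM in WT PBS, 12.75 and 14.44 in WT NMDA, 4.74 and 6 for JNK3 KO PBS, 3.17 and 3.22 for JNK3 KO NMDA, 2.47 and 1.31 in sh*Pax6* PBS and 1.44 and 5.98 FPKM in sh*Pax6* NMDA libraries. Its libraries ordered by genotype more than by injection, with both WT groups above all others, and the 2 sh*Pax6* NMDA libraries lay on both sides of the sh*Pax6* PBS mean of 1.89 FPKM. *Chil4* was listed at 0 in all 12 libraries.

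The other members encode surface proteins. *Ms4a7*, a tetraspan protein of macrophages, was listed at 0.18 and 0.49 FPKM in WT PBS, 1.62 and 3.81 in WT NMDA, 1.54 and 0.86 for JNK3 KO PBS, 1.33 and 1.27 for JNK3 KO NMDA, 3.73 and 2.72 in sh*Pax6* PBS and 13.2 and 13.94 FPKM in sh*Pax6* NMDA libraries. It was the only member above 1 FPKM whose sh*Pax6* PBS libraries lay above its WT PBS libraries, and its WT NMDA and sh*Pax6* PBS groups overlapped. *Mrc1*, the mannose receptor CD206 of border macrophages, had 1.7 and 2.47 FPKM in sh*Pax6* NMDA libraries and between 0.02 and 0.23 FPKM in the other 10. *Cd163*, the hemoglobin scavenger receptor that accompanies *Mrc1* on border macrophages, was listed at 0 in 9 libraries and at 0.02 to 0.04 FPKM in the other 3, which were of the WT PBS, JNK3 KO NMDA and sh*Pax6* NMDA groups. The label of the set thus held unevenly: a defining scavenger receptor of tissue macrophages was near 0 in all groups.

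*Ly6c2* encodes part of the Ly6C antigen of inflammatory monocytes. It was listed at 7.71 and 8.01 FPKM in WT PBS, 5.94 and 4.13 in WT NMDA, 1.9 and 2.33 for JNK3 KO PBS, 4.03 and 4.16 for JNK3 KO NMDA, 8.04 and 5.6 in sh*Pax6* PBS and 16.73 and 14.12 FPKM in sh*Pax6* NMDA libraries. WT PBS, sh*Pax6* PBS, WT NMDA and JNK3 KO NMDA libraries overlapped as neighbours in this order, and JNK3 KO PBS libraries were lowest. Its copy *Ly6c1* was more abundant in the WT and JNK3 KO groups, with 14.96 to 27.81 FPKM, so *Ly6c2* made up 9.74% to 34.9% of the sum of the pair there and 44.2% to 64.0% in sh*Pax6* libraries. The sum itself was 26.3 and 22.97 FPKM in WT PBS, 30.5 and 31.94 in WT NMDA, 19.5 and 18.06 for JNK3 KO PBS and 23.82 and 26.57 FPKM in JNK3 KO NMDA libraries. After NMDA the sum of the pair was therefore higher in WT libraries while *Ly6c2* alone was lower, and how reads were divided between the copies was not tested.

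In WT retinas, *Wfdc17*, *Ms4a7* and *Arg1* rose after NMDA. *Wfdc17* rose 8.39-fold by the ratio of means and by 3.05 on the log2 scale of the fit (standard error 1.1) with an adjusted p of 0.0376 by limma. *Ms4a7* rose from a mean of 0.335 to 2.72 FPKM, with a log2 difference of 2.67 (standard error 0.48, adjusted p = 0.000982), and *Arg1* rose from 13.3 to 26.7 FPKM, with 1.01 (standard error 0.21, adjusted p = 0.00217). In all 3 genes both NMDA libraries lay above both PBS libraries. Thus 3 of the 8 members tested were called higher and 0 lower, against 14.2% and 20.9% of all genes tested.

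A further 3 members had an adjusted p under 0.05 in WT retinas but a log2 difference within 1. *Lyz2* differed by 0.62 (standard error 0.06, adjusted p = 2.35e-05), *F13a1* by 0.9 (standard error 0.32, adjusted p = 0.0378) and *Ly6c2* by -0.65 (standard error 0.23, adjusted p = 0.0326). *Chil3*, with 0.3 (95% interval -0.91 to 1.51), and *Mrc1*, with -0.16 (95% interval -1.48 to 1.15), did not pass. *Mrc1* did not exceed 0.05 FPKM in these libraries, below the pseudocount of 0.1, so its test could hardly pass. It still counts among the 8 members tested in WT and JNK3 KO retinas. The median over the 8 members was 0.76, beside -0.09 over all genes tested. The share of all genes at an adjusted p under 0.05 alone is not given here, so no count of members at that cut is read.

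Several of these WT values moved with the scale. Scaling to TPM, which divides by the summed FPKM, moved the median of all genes to -0.66 and the calls over all genes to 5.52% higher and 35.7% lower, and a correction of each library for gene length gave 13.4% and 11.9%. *Wfdc17* had a log2 difference of 2.48 on TPM (adjusted p = 0.124) and 2.61 with the length correction (adjusted p = 0.0638). *Arg1* had 0.44 on TPM (adjusted p = 0.102) and 0.6 with the length correction (adjusted p = 0.0231). Its log2 difference, 1.01 at the outset, also fell within 1 with 75th-percentile scaling (0.93), quantile normalization (0.99) and a pseudocount of 1 (0.96), so that 6 of 11 other settings lost the call, as it was lost without WT PBS replicate 1 (0.85) and without WT NMDA replicate 1 (0.94). *Ms4a7* kept its call on every scale, from 2.27 on TPM to 3.41 with quantile normalization. *Lyz2* was at 0.04 on TPM, -0.03 with quantile normalization and -0.05 with the length correction, so its direction in WT retinas was not fixed by these data. *F13a1*, with 6739 exonic bases over all its transcripts, was called higher with the length correction, at 1.52 (adjusted p = 0.00387), and *Ly6c2* was called lower on TPM, at -1.23 (adjusted p = 0.00129). The correction used such exonic lengths of genes, which can exceed the transcript that carries the signal. For *Ms4a7* the exonic length was 4453 bases, against 882 in its main transcript, Ms4a7-202.

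**Figure D2:**
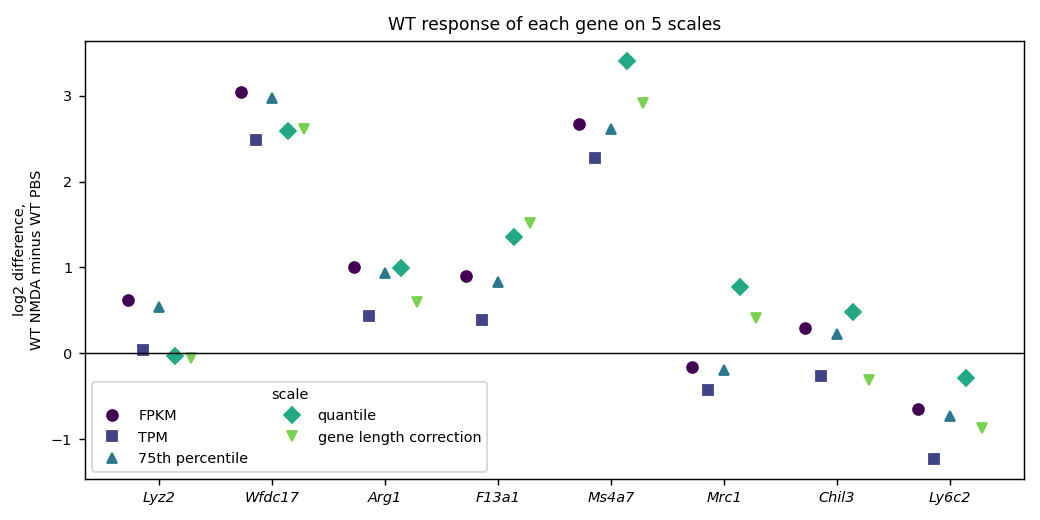
Log2 difference between WT NMDA and WT PBS (vertical axis) of the 8 genes above the filter, on FPKM, TPM, 75th-percentile scaling, quantile normalization and after a gene length correction (marker shapes). *Wfdc17* and *Ms4a7* stay above 2 on all 5 scales, whereas *Lyz2*, *Mrc1* and *Chil3* lie on both sides of 0.

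The large standard error of *Wfdc17* came from a group outside the comparison. All 6 groups share 1 estimate of the spread, and the 2 sh*Pax6* PBS libraries, at 0 and 2.36 FPKM, were far apart on the log2 scale. Without sh*Pax6* PBS replicate 1, the WT difference of 3.05 had a standard error of 0.13 (adjusted p = 1.53e-06 by limma), and with the spread of the WT libraries alone it had one of 0.12 (adjusted p = 0.00151). Leaving out any other library except sh*Pax6* PBS replicate 2 raised the adjusted p to between 0.0626 and 0.138.

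In JNK3 KO retinas, no member rose or fell by the same criteria. The count was 0 of 8 by limma, against 0.777% of all genes called higher and 1.87% lower. The members with the lowest p were *Lyz2*, at a log2 difference of -0.43 (standard error 0.06, adjusted p = 0.00337), and *Ly6c2*, at 0.93 (standard error 0.23, adjusted p = 0.0335). The main transcript of *Ly6c2*, Ly6c2-201, was however lower after NMDA. *Wfdc17* went from a mean of 9.8 to 4.43 FPKM, a log2 difference of -1.13 (standard error 1.1, adjusted p = 0.605). Without sh*Pax6* PBS replicate 1 its standard error was 0.13 and it was called lower (adjusted p = 0.0024), as it was without replicate 2 (adjusted p = 0.00272) and with the spread of the JNK3 KO libraries alone (adjusted p = 0.0435). *Arg1* had -0.4 (95% interval -0.86 to 0.07), *Chil3* -0.72 (-1.93 to 0.49) and *Ms4a7* 0.16 (-0.92 to 1.24). The median over the 8 members was -0.12, beside -0.01 over all genes tested. Both NMDA libraries lay below both PBS libraries for *Wfdc17*, *Arg1*, *Chil3* and *Lyz2*, and above them for *Mrc1*, *Ly6c2* and *F13a1*. The share of all genes separated in this way is not given here, so no response is read from these orders.

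The NMDA responses of WT and JNK3 KO retinas differed in 5 of 8 members. The response was larger in WT by 4.18 for *Wfdc17* (standard error 1.56, interaction by limma with adjusted p = 0.0488), 2.52 for *Ms4a7* (standard error 0.67, adjusted p = 0.0118), 1.41 for *Arg1* (standard error 0.29, adjusted p = 0.00299) and 1.04 for *Lyz2* (standard error 0.09, adjusted p = 1.33e-05), all on the log2 scale. For *Ly6c2* it was smaller, by -1.58 (standard error 0.32, adjusted p = 0.00276), since the gene value was lower after NMDA in WT and higher in JNK3 KO retinas. Its main transcript, Ly6c2-201, did not follow this. After NMDA it overlapped PBS in WT and lay below PBS in JNK3 KO libraries. The shares of all genes called were 15.5% higher and 20.1% lower, and the median was 1.03 over the members and -0.03 over all genes tested. *Chil3*, at 1.02 (95% interval -0.69 to 2.73), *F13a1*, at 0.44 (-0.59 to 1.48), and *Mrc1*, at -0.83 (-2.69 to 1.03), did not pass. *Mrc1* lay between 0.02 and 0.23 FPKM in WT and JNK3 KO libraries, so its outcome says little.

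This comparison depends on the WT NMDA libraries and so on the scale. On TPM and with the length correction 2 members were called, *Ms4a7* higher and *Ly6c2* lower, beside 6.87% higher and 32.8% lower of all genes on TPM and 13.9% and 10.8% with the length correction. *Arg1* then differed by 0.82 on TPM (adjusted p = 0.0443) and 0.88 with the length correction (adjusted p = 0.0255). *Lyz2* differed by 0.45 on TPM (adjusted p = 0.00128) and by 0.19 with the length correction (adjusted p = 0.0879). *Ms4a7* lost its call without JNK3 KO PBS replicate 1, with 2.13 (adjusted p = 0.0522), and *Lyz2* had 0.98 without that library or without WT PBS replicate 1. *Wfdc17* had an adjusted p of 4.63e-06 when replicate 1 of sh*Pax6* PBS was left out and 5.14e-06 when replicate 2 was, and lost its call without any other library, with adjusted p from 0.0948 to 0.129.

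**Figure D3:**
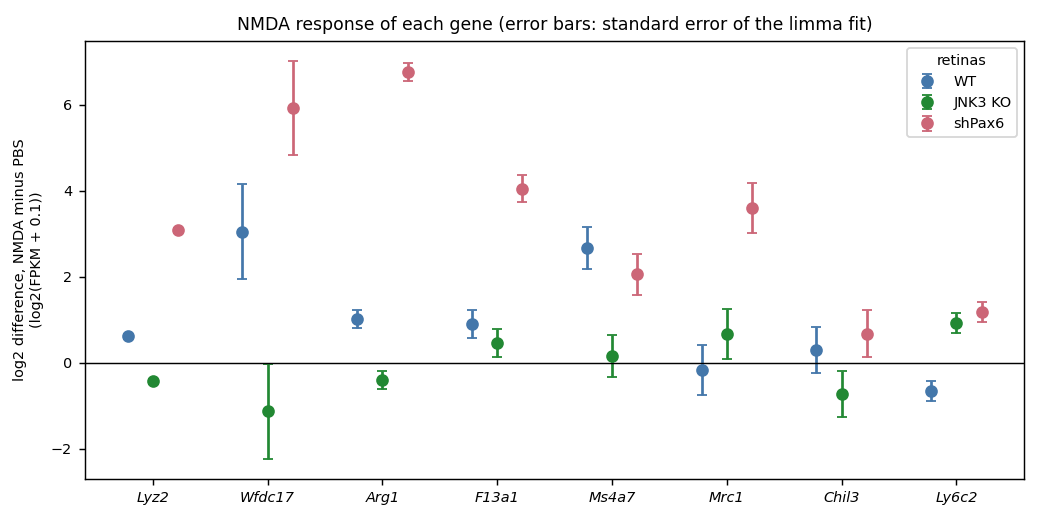
Log2 difference between NMDA and PBS libraries (vertical axis, log2(FPKM + 0.1)) of the 8 genes above the filter in WT, JNK3 KO and sh*Pax6* retinas, with error bars of 1 standard error of the limma fit. The sh*Pax6* values reach 6.75 for *Arg1*, and *Wfdc17*, *Lyz2*, *Arg1* and *Chil3* lie below 0 in JNK3 KO retinas alone.

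Between the PBS groups of JNK3 KO and WT retinas, *Ly6c2* was lower in JNK3 KO, at a mean of 2.12 against 7.86 FPKM. The log2 difference came to -1.85 with a standard error of 0.23 (adjusted p = 0.00892 by limma), and it was the only member called. The shares of all genes called were 0.103% higher and 0.127% lower. The call was lost without WT PBS replicate 1 (adjusted p = 0.0885), WT PBS replicate 2 (0.0698) or JNK3 KO PBS replicate 1 (0.0984) and with the spread of the compared libraries alone (0.137), with the log2 difference between -1.99 and -1.71 over all 12 libraries left out in turn. *Lyz2* had -0.39 (standard error 0.06, adjusted p = 0.0222), within a log2 difference of 1. *Chil3*, at means of 5.37 and 11 FPKM, had -1.03 (95% interval -2.24 to 0.18), and *Ms4a7*, at 1.2 and 0.335 FPKM, had 1.63 (95% interval 0.55 to 2.71, adjusted p = 0.146).

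In sh*Pax6* retinas, whose response entered the choice of members, NMDA libraries lay above PBS libraries without overlap in the members above the filter other than *Chil3*. The ratio of means was 126 for *Arg1*, 37.2 for *F13a1*, 26.1 for *Mrc1*, 25.4 for *Wfdc17*, 8.46 for *Lyz2*, 4.21 for *Ms4a7* and 2.26 for *Ly6c2*. On log2(FPKM + 0.1) the differences were 6.75 (standard error 0.21) for *Arg1*, 5.92 (1.1) for *Wfdc17*, 4.05 (0.32) for *F13a1* and 3.59 (0.58) for *Mrc1*, and the pseudocount understates those of the low genes *F13a1* and *Mrc1*. *Wfdc17* ranged from 3.61 without sh*Pax6* PBS replicate 1 to 8.23 without replicate 2, so its size in this comparison rests on 1 library. *Chil3* was the exception, with 0.68 (standard error 0.54), and changed sign to -0.31 without sh*Pax6* NMDA replicate 2. Of all genes, 8.64% were higher in this comparison by the call used elsewhere, and nothing is read from the members beside that share, since the comparison entered their choice.

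The sh*Pax6* PBS levels were low for most members. Under PBS, sh*Pax6* libraries lay below WT libraries without overlap for *Arg1* (0.48 against 13.3 FPKM on average), *Wfdc17* (1.18 against 14.1), *F13a1* (0.075 against 0.79), *Chil3* (1.89 against 11) and *Lyz2* (29.7 against 102). They lay above WT for *Ms4a7* (3.22 against 0.335) and, near 0, for *Mrc1* (0.08 against 0.05). After NMDA the sh*Pax6* libraries lay above WT NMDA libraries in 6 members on FPKM, a scale on which the sum over all genes was larger in WT NMDA libraries, from 1.61-fold for *Lyz2* and 1.81-fold for *F13a1* over 2.27-fold for *Arg1* and 3.06-fold for *Ly6c2* to 5-fold for *Ms4a7*. *Mrc1* was at 2.08 FPKM in sh*Pax6* NMDA and at 0.035 FPKM in WT NMDA libraries. *Wfdc17* and *Chil3* were higher in WT NMDA, 3.95-fold and 3.66-fold. The responses of the genotypes share no PBS library, but these values were not tested because the choice of members used the sh*Pax6* libraries. Nor is the share of all genes without overlap given for these pairs of groups, so nothing is read from how many members differ.

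Genes of other blood cells also differed between the groups. The 14 neutrophil genes, among them the granule and alarmin genes *S100a8*, *S100a9* and *Retnlg*, summed to 230 to 253.2 FPKM in WT PBS, 1980 to 2021 in WT NMDA, 171.5 to 185.2 for JNK3 KO PBS, 17.67 to 18.34 for JNK3 KO NMDA, 8.44 to 12.43 in sh*Pax6* PBS and 72.25 to 82.32 FPKM in sh*Pax6* NMDA libraries. Of the 11 tested, 6 were called higher in WT and 5 lower in JNK3 KO retinas after NMDA, with 2 neutrophil genes at 0 in each WT library. *S100a9* went from 92.86 and 99.58 to 1145.58 and 1114.59 FPKM in WT and from 70.71 and 76.1 to 4.34 and 6.61 FPKM in JNK3 KO retinas. The 5 erythrocyte genes, globins and *Alas2*, summed to 97.28 to 107 FPKM in WT PBS and 613.4 to 650 FPKM in WT NMDA libraries, where all 5 were called higher. In sh*Pax6* retinas the erythrocyte sum was 28.68 to 50.31 FPKM under PBS and 120 to 126 FPKM after NMDA, and in JNK3 KO retinas 123 to 126.4 and 69.41 to 79.68 FPKM. *Lyz2* and *Chil3* are also neutrophil transcripts, and the part of neutrophils or of blood in the members' values was not tested.

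**Figure D4:**
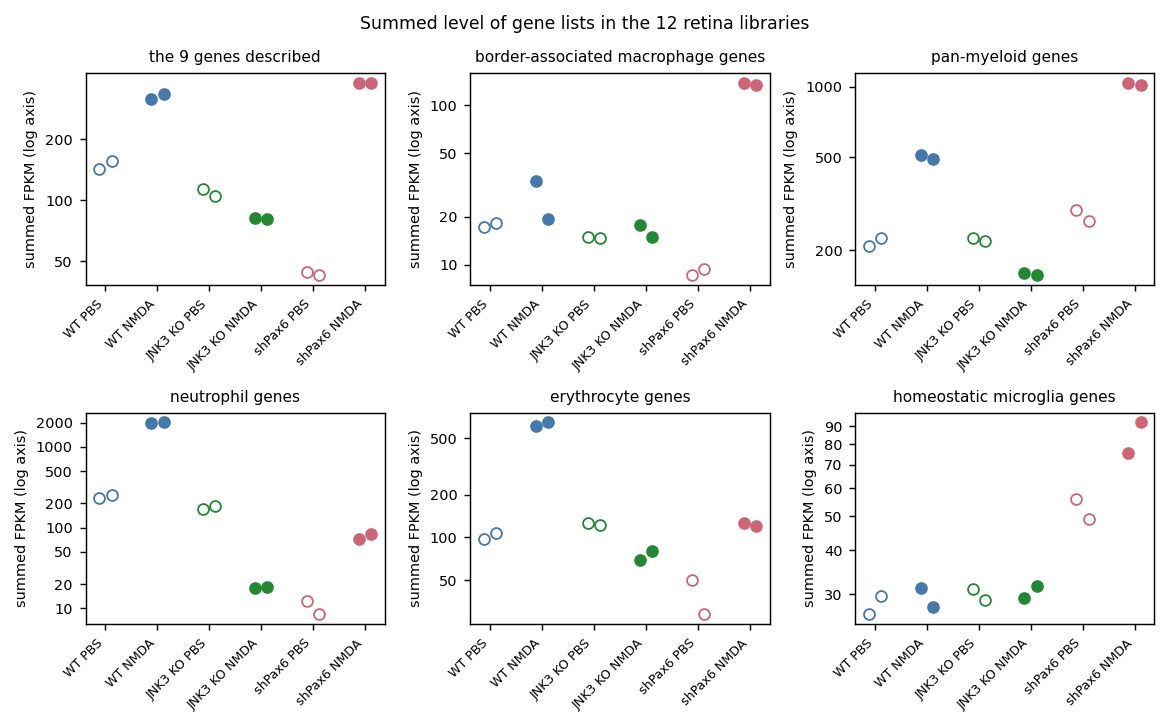
Summed FPKM (vertical axis, logarithmic) of the 9 genes described and of 5 other gene lists in the 6 groups, with 1 point per library (open for PBS, filled for NMDA). Neutrophil genes peak at 1980 to 2021 in WT NMDA, whereas border-associated macrophage genes reach 132.8 to 137.8 only in sh*Pax6* NMDA libraries.

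Lists of other macrophage and monocyte genes are given by their calls in WT and JNK3 KO retinas, beside the shares of all genes above. For sh*Pax6* retinas the median log2 difference between NMDA and PBS is given as a description, over the genes that passed the filter and beside 0.1 over all genes. Some of these genes, among them *Ccl8*, passed the filter through sh*Pax6* libraries alone, so nothing is read from the size of these medians. Border-associated macrophage genes, 12 in number and led by the chemokines *Ccl8* and *Pf4* and the scavenger receptor *Stab1*, summed to 132.8 to 137.8 FPKM in sh*Pax6* NMDA libraries and to 8.62 to 33.52 FPKM in the others. Of the 10 tested, 1 was called higher and 2 lower in WT after NMDA. The median log2 difference was 0.06 in JNK3 KO and 3.14 in sh*Pax6* retinas, and each sh*Pax6* NMDA library had 2 of the 12 at 0. Of the 18 pan-myeloid genes, such as *Tyrobp*, *Ctss* and the complement gene *C1qa*, 6 were called higher and 2 lower in WT and 6 lower in JNK3 KO retinas, and the sh*Pax6* median was 2.1. *C1qa* went from 57.06 and 50.78 to 171.62 and 164.59 FPKM in sh*Pax6* and from 11.51 and 12.47 to 22.44 and 21.5 FPKM in WT retinas. Of the 15 blood monocyte genes, among them *Fn1*, *S100a4* and *Hp*, 3 were called higher and 2 lower in WT and 4 lower in JNK3 KO retinas, and the sh*Pax6* median was 2.17. Homeostatic microglia genes, among them *Cx3cr1* and *Olfml3*, summed to 26.28 to 31.57 FPKM in all WT and JNK3 KO libraries and to 49.17 to 92.59 FPKM in sh*Pax6* libraries. Of the 9 tested, 2 were called lower in WT and 1 lower in JNK3 KO retinas after NMDA, and the sh*Pax6* median was 0.57.

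Signals that draw monocytes and that mark their activation gave a mixed picture. Of 11 monocyte recruitment genes tested, 6 were called higher in WT and 2 lower in JNK3 KO retinas after NMDA, and 8 had a larger response in WT than in JNK3 KO retinas. Their median log2 difference in sh*Pax6* retinas was 2.05. *Ccl2*, the main monocyte chemokine, went from 4.61 and 4.39 to 138.26 and 126.01 FPKM in WT (log2 difference 4.84, adjusted p = 1.48e-06 by limma), from 5.23 and 5.38 to 7.03 and 8.41 FPKM in JNK3 KO and from 0.91 and 2.2 to 31.4 and 37.63 FPKM in sh*Pax6* retinas. *Ccl2* was thus highest in WT NMDA, as *Wfdc17* was. Of 10 classical activation genes tested, 3 were called higher in WT and 3 lower in JNK3 KO retinas, and the sh*Pax6* median was 2.58. *Il1b*, an inflammatory cytokine, reached 89.65 and 82.05 FPKM in WT NMDA but 4.74 and 7.63 FPKM in sh*Pax6* NMDA libraries, whereas *Cxcl10* reached 40.65 and 47.66 FPKM in sh*Pax6* NMDA but 4.7 and 3.53 FPKM in WT NMDA libraries. Of 7 alternative activation genes tested, which accompany *Arg1* in cells exposed to interleukin 4, 1 was called lower in JNK3 KO retinas, and the median log2 difference was 0.29 in WT retinas against a sh*Pax6* median of 2.29. *Il1rn*, *Il4ra* and *Tgm2* were the most abundant of them.

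Other cell types were checked by their own lists. Of 7 dendritic cell genes tested, 2 were called lower in WT and 2 lower in JNK3 KO retinas, the sh*Pax6* median was 2.02, and the most abundant were the antigen presentation genes *Cd74*, *H2-Aa* and *H2-Ab1*. Lymphocyte genes summed to 0.66 to 2.63 FPKM in all but the sh*Pax6* NMDA libraries, which had 9.15 to 10.59 FPKM. Of the 5 tested, 1 was called lower in WT, *Cd3g*, at 0.45 and 0.5 FPKM under PBS and 0 in both NMDA libraries. Its group mean exceeded 1 FPKM in sh*Pax6* NMDA libraries alone, so this call near 0 says little. Genes of retinal pigment epithelium and choroid, 10 in number, summed to 53.5 to 60.21 FPKM in WT PBS and to 27.82 to 30.32 FPKM in sh*Pax6* NMDA libraries. Of the 8 tested, 1 was called lower in WT after NMDA. The fibroblast collagen gene *Col1a2* went in sh*Pax6* retinas from 0.67 and 0.95 to 7.53 and 10.44 FPKM, and the pigment epithelium gene *Rgr* from 12.94 and 14.99 to 0.87 and 0.98 FPKM. The part of tissue carried along with the sh*Pax6* NMDA retinas in the members' values was not tested. Of the 15 retina genes, 4 were called lower in WT and 2 in JNK3 KO retinas, and the sh*Pax6* median was -0.72.

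Over the 12 libraries, the protein-coding genes most like the mean profile of the 9 members, out of 13467 ranked, included *Ccl6* (Pearson r = 0.95), *Stab1* (0.943) and *Tgm2* (0.942). These coefficients are descriptions over 12 libraries that share 6 groups and the spread in scale noted above. *Ccl6*, a chemokine of myeloid cells, had 7.99 and 10.6 FPKM in WT PBS, 36.17 and 43.67 in WT NMDA, 7.33 and 4.58 for JNK3 KO PBS, 11.41 and 14.03 for JNK3 KO NMDA, 2.19 and 1.98 in sh*Pax6* PBS and 79.46 and 78.45 FPKM in sh*Pax6* NMDA libraries. Among the members, *Arg1* and *F13a1* were most alike (r = 0.966), followed by *Arg1* and *Lyz2* (0.94), and *Ms4a7* and *Chil3* least (-0.441).

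The transcript table divided the gene values further. *Lyz2* and *Wfdc17* have 1 transcript each, and the transcripts of every member summed to its gene value within 0.01 FPKM in each library. For *Ms4a7*, Ms4a7-202 and Ms4a7-203 carried the signal, with 6.56 and 6.61 FPKM and 6.64 and 7.27 FPKM in the sh*Pax6* NMDA libraries, but Ms4a7-202 alone held 1.53 and 3.07 of the 1.62 and 3.81 FPKM in WT NMDA. In *Ly6c2* the transcript Ly6c2-201 had 5.05 and 5.14 FPKM in WT PBS and 1.9 and 2.13 FPKM in JNK3 KO PBS libraries, so the lower level of the gene in JNK3 KO PBS was also seen in its main transcript. After NMDA this transcript had 5.66 and 4.06 FPKM in WT, where it overlapped PBS, and 1.68 and 0.8 FPKM in JNK3 KO libraries, where it lay below PBS. The higher gene value of JNK3 KO NMDA libraries was therefore carried by Ly6c2-203, at 2.33 and 2.93 FPKM against 0 in both JNK3 KO PBS libraries, and the division of reads between these transcripts was not tested. *F13a1* was assigned to F13a1-201 in 1 sh*Pax6* NMDA library, at 2.71 FPKM, and to F13a1-202 in the other, at 2.72 FPKM, so its isoforms were not compared.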

How the data were processed

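RNA-seq of mouse retina was analysed in 12 libraries, 2 for each of 6 groups (WT, JNK3 KO and sh*Pax6* retinas injected with PBS or NMDA), grouped by the labels. The authors aligned the reads to GRCm38.p6 with STAR 2.7.1a, estimated abundance with RSEM 1.3.3 and deposited 2 tables of FPKM, of genes and of transcripts. FPKM are not counts, so depth and counting error are unknown, and precision was judged from the 2 libraries of a group. A median gene differed between them by 0.11 to 0.25 on the log2 scale.

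Values were taken to log2(FPKM + 0.1), and genes whose mean exceeded 1 FPKM in any of the 6 groups were kept. The limma package 3.58.1 in R 4.3.3 estimated 6 group means, which leaves 6 degrees of freedom, and moderated the variances with a trend in intensity. A total of 4 comparisons without sh*Pax6* libraries were tested, with Benjamini-Hochberg adjustment over all genes kept. The fit was tested on simulated data. The members and all gene lists were chosen with earlier results of these data known. Named genes were the members, their near-identical copies, the 3 genes of each other list with the highest mean FPKM, the 5 genes most like the members' profile, and *Pax6* and *Mapk10*, of which some are not reported here. Exonic lengths and coding sequences came from GENCODE M21, which held 99.53% of the genes, and promoter windows from RefSeq. The fit was repeated with a pseudocount of 1 or 0.5, without the filter, with a filter on means over 12 libraries, on TPM, with 75th-percentile scaling, quantile normalization or a gene length correction (lowess span 0.3), with the spread of the libraries compared alone, without the trend, with a replicate block, and after dropping each library. A group then reduced to 1 library was assumed to vary like the others. Plots were made in matplotlib 3.10.9 under Python 3.11.15.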

Additional observations from a re-analysis of the deposited data

Results flagged for a closer look

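The NMDA response differed between WT and JNK3 KO retinas by limma's interaction test in 5 members: by 4.18 on the log2 scale for *Wfdc17*, 2.52 for *Ms4a7*, 1.41 for *Arg1*, 1.04 for *Lyz2* and -1.58 for *Ly6c2* (WT minus JNK3 KO). For *Ly6c2* this holds for the gene value only, as its main transcript was lower after NMDA in JNK3 KO retinas. In 4 more cases both libraries of one genotype moved up after NMDA and both of another moved down, and these differences were not tested because sh*Pax6* libraries entered the choice of members. Between sh*Pax6* and JNK3 KO retinas they were 7.05 for *Wfdc17*, 7.14 for *Arg1* and 3.5 for *Lyz2*, all higher in sh*Pax6*. The difference of *Wfdc17* contains the rise on record for the choice of members and ranged from 4.74 to 9.36 with each library left out. Between WT and sh*Pax6* retinas the difference was -1.84 for *Ly6c2*, which was lower after NMDA in WT and higher in sh*Pax6*. The share of all genes that moved in opposite directions in this way is not given here, so nothing is read from the number of these cases. With 2 libraries per group, no single library could be checked against the rest of its group.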

How the results depend on the processing

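In WT retinas 3 members were called after NMDA, 2 to 3 in the other settings and 1 to 3 with each library left out in turn. In JNK3 KO retinas 0 were called, 1 with the gene length correction (*Ly6c2*, higher), 1 with the spread of the libraries compared alone (*Wfdc17*, lower), and 0 to 1 with each library left out. Between the PBS groups 1 was called, 0 with the spread of the libraries compared alone and 0 to 1 with each library left out. For the difference between the WT and JNK3 KO responses 5 were called, 2 on TPM, 3 with 75th-percentile scaling, 3 with quantile normalization, 2 with the gene length correction and 2 to 5 with each library left out. The WT counts did not always hold the same members. On TPM the WT calls were *Ms4a7* higher and *Ly6c2* lower, and with the gene length correction they were *Ms4a7* and *F13a1*, both higher. With a replicate block the counts were 3, 0, 1 and 5, so the block changed none of these counts. The labels do not say whether the replicate numbers pair the libraries. The correlation across genes of the difference between replicates 1 and 2 lay between -0.097 and 0.086 over pairs of groups. No strong effect shared by replicate number was seen, but with 2 libraries per group this cannot exclude a pairing. The sign turned for *Chil3* in WT on TPM (-0.27) and with the length correction (-0.31), for *Mrc1* in WT with quantile normalization (0.77) and the length correction (0.41), and for *Lyz2* in WT with quantile normalization (-0.03) and the length correction (-0.05). It also turned for *F13a1* in the difference of responses on TPM (-0.11), for *Ms4a7* in JNK3 KO without JNK3 KO PBS replicate 2 (from -0.23 to 0.54 over the libraries left out) and for *Arg1* between PBS groups without WT PBS replicate 2 (from -0.29 to 0.03 over the libraries left out). Reads behind a value are unknown, so for members near 0 FPKM a difference could not be told from counting error.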
